A study of Arabidopsis thaliana with 6 samples.

Results

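Fasciclin-like arabinogalactan proteins (FLAs) are cell wall and plasma membrane glycoproteins, and 10 of the genes that encode them, FLA1, FLA2 and FLA6 to FLA13, were followed here across 3 doses of melatonin. The genes were taken by their locus identifiers from a table of 32678 genes, and all 10 were found and passed the filter on low counts. The RNA came from wild-type Arabidopsis thaliana plants aged 7 days that had been grown on plates of MS medium and were then held for 12 h without melatonin (the controls) or with 100 or 1000 µM of it. Melatonin is an indoleamine made from tryptophan. Each dose had 2 libraries. Since no label says whether their plants were separate, a p-value reflects only how these libraries scatter, which may be technical.

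Background on the family comes from textbook knowledge. An FLA carries fasciclin domains, which in animals and plants take part in adhesion, beside stretches rich in proline, alanine, serine and threonine that the plant decorates with branched arabinose and galactose chains. Many FLAs are fixed to the outer face of the plasma membrane by a glycosylphosphatidylinositol (GPI) anchor and are linked to cellulose deposition, wall stiffness and root growth. FLA6, FLA7, FLA9, FLA11, FLA12 and FLA13 are short proteins with a single fasciclin domain, and FLA1, FLA2, FLA8 and FLA10 are longer ones with a pair of them. The RefSeq annotation of the assembly TAIR10.1 shows the same split in coding length, which was 741 to 765 bp in the short group and 1212 to 1275 bp in the long group. Of the 10 genes, 9 have a single exon in their longest coding transcript and FLA1 has 2.

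FLA8 and FLA10 were 83.5% identical over 1251 aligned bases and share a stretch of 53 identical bases, while FLA9 and FLA13 were 78.5% identical over 735 bases with a longest shared stretch of 27. These are the closest pairs of coding sequences among the 10. FLA6 was 68.5% identical to FLA9 and 66.4% to FLA13. Reads from such shared stretches may be dropped or assigned to either gene, which was not tested. FLA11 (AT5G03170) overlaps P58IPK (AT5G03160), a gene of the opposite strand. The other 9 members overlap no gene of the table.

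The promoters of FLA9 and FLA13 are shown because these are the most abundant members and the closest relatives in the short group, and because at 1000 µM FLA9 passed the test and FLA13 did not. FLA9 (AT1G03870) lies at chr1:982381-983544 on the minus strand and FLA13 (AT5G44130) at chr5:17760865-17762089 on the plus strand. The windows are the 250 bases before each annotated gene start, chr1:983545-983794 for FLA9 and chr5:17760615-17760864 for FLA13, from RefSeq's TAIR10.1 genome, read 5′ to 3′ on the strand of the gene. Capitals mark the motifs searched for on both strands.
FLA9: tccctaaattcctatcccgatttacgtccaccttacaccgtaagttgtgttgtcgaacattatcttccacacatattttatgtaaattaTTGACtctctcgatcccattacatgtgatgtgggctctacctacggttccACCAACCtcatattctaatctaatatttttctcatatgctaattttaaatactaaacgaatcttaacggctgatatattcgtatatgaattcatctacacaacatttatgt
FLA13: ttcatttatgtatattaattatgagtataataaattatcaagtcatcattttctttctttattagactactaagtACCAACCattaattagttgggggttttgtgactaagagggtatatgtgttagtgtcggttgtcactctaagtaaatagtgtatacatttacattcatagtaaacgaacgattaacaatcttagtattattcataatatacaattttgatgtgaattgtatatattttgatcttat
The capitals are ACCAACC in both windows, 111 bases before the start of FLA9 and 175 bases before that of FLA13, and TTGAC in that of FLA9, 161 bases before the start. ACCAACC is an AC element, a motif known from promoters of phenylpropanoid genes, and it was present in 2 of the 10 members, these 2, and in 2.69% of 27443 promoters of the same length. TTGAC, the core of the W-box bound by WRKY factors, was present in FLA1, FLA6, FLA9 and FLA10 and in 44.9% of all promoters. The TATA box motif TATAAA was present in 5 members (FLA2, FLA6, FLA7, FLA8 and FLA10) and in 47.3% of all promoters. The auxin response element TGTCTC was present in FLA1 and FLA11 and in 10.9% of all. The G-box CACGTG was found in 0 members and 6.49% of all promoters. The motif TGACG, bound by TGA factors and able to overlap with the W-box core, was found in 0 members and 18.6% of all. The other AC elements searched, ACCTACC (1.16% of all promoters) and its variant ACCTAAC (2.46%), were found in 0 members. A match says only that the letters are there.

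Library totals ranged from 6410046 to 7723602 counts. The libraries of a group differed more at 1000 µM than in the other groups, with a chi-square per degree of freedom of 5.68 at 1000 µM, 1.86 at 100 µM and 1.96 in the controls. The labels name rosette leaves, while the series title speaks of root growth. The leaf genes RBCS1A, CA1, RCA and GLDP1 were abundant in every library and fell at 1000 µM, where the summed level of 6 leaf markers was 16060 and 14450 CPM (the gene's count relative to the library total, with TMM scaling) against 25220 and 27460 CPM in the controls. LHCB1.1 and LHCB2.1, the other leaf markers, had only 10.5 to 25.3 CPM. All 10 root markers listed had counts, led by PYK10 at 2006 and 2051 CPM at 1000 µM and 3177 and 3315 CPM in the controls. Without PYK10 their sum was 51.2 to 55.5 CPM at 1000 µM and 64.1 to 80.3 CPM in the controls. Some were near the floor, such as RHD6 at 0.466 CPM in 100 µM replicate 2 and NRT2.1 at 0.379 CPM in 1000 µM replicate 2. Of the 10 root markers, 6 fell and 1 (IRT1) rose at 1000 µM against the controls (4 calls in all with DESeq2). Over all genes tested, 14.5% fell and 15.2% rose in that comparison. Of 6 shoot apex markers 4 could be tested, and 0 passed in edgeR or DESeq2 or with an unadjusted p under 0.05. Of all genes tested, 3.32% to 29.6% passed in edgeR, depending on the comparison. The part of these shifts in the FLA results was not tested. In bulk RNA, fewer cells of a type and less RNA per cell cannot be told apart.

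The FLA genes spanned more than 2 orders of magnitude in level. Levels are compared per length, as CPM per kb of exon, with mean ± SD over n = 2 libraries. In the controls FLA13 stood at 818 ± 31.4 and FLA9 at 613 ± 25.7 CPM per kb, followed by FLA2 at 199 ± 16.2 and FLA8 at 179 ± 2.68. FLA7 had 28.7 ± 1.36 and FLA1 24.1 ± 3.12 CPM per kb. In each of these steps the lower gene's higher library was below the higher gene's lower library. FLA11, FLA6, FLA12 and FLA10, with means of 2.17 to 3.58 CPM per kb, made up the low end, where FLA11, FLA6 and FLA12 overlapped. The order of the top changed at 1000 µM, with FLA9 at 885 ± 152 and FLA13 at 662 ± 199 CPM per kb, although the ranges of these 2 genes overlapped there (778 to 993 for FLA9 and 522 to 803 for FLA13). FLA13, FLA9, FLA2 and FLA8 together gave 94.97% to 96.8% of the counts of the 10 genes in each library.

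**Figure D1:**
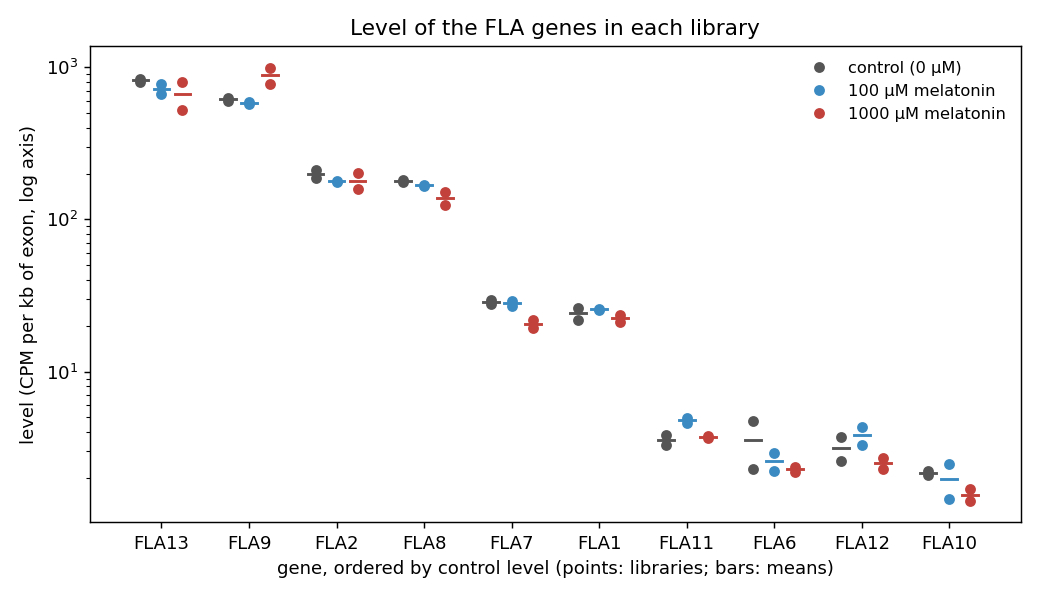
Level of each FLA gene in each library, in CPM per kb of exon on a log axis, for the controls, 100 µM and 1000 µM melatonin (points are libraries, bars are means of 2). FLA13 and FLA9 lie at 522 to 993 CPM per kb, FLA11, FLA6, FLA12 and FLA10 at 4.96 or less, and FLA9 is the gene whose 1000 µM libraries both stand above the other 4.

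Of the 10 genes, FLA9 rose and FLA7 and FLA8 fell at 1000 µM against the controls, 3 of 10, where 29.6% of all genes tested changed in edgeR's quasi-likelihood test (adjusted p under 0.05), 15.2% rising and 14.5% falling. The share of members is therefore close to that of all genes. The median log2 change was -0.31 over the 10 genes and -0.013 over all genes tested, and the libraries of the groups did not overlap for 4 of the 10 genes against 64.6% of all genes. The calls of FLA7 and FLA8 ended without control replicate 2. Without 1000 µM replicate 1 the log2 changes of FLA2 and FLA13 were -0.33 and -0.64. Such fits keep 1 library in a group, so the spread rests on the other groups. Against 100 µM, FLA9 rose and FLA7 fell at 1000 µM, 2 of 10 genes, where 16% of all genes changed, 8.65% rising and 7.3% falling. The median log2 change was then -0.24 over the 10 genes and -0.0016 over all genes, and the libraries did not overlap for 6 of the 10 genes against 55.2% of all. The number of genes called against 100 µM was 1 with DESeq2, and the call of FLA7 also ended without either 100 µM library.

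At 100 µM against the controls 0 of the 10 genes passed in edgeR, where 3.32% of all genes did (1.79% higher and 1.53% lower). In this fit of all 6 libraries 0 had an unadjusted p under 0.05, and 0 passed with DESeq2. The log2 changes ran from -0.45 for FLA6 to 0.42 for FLA11. For the 6 genes with the higher counts they lay between -0.18 for FLA13 and 0.093 for FLA1, and the 95% intervals of these 6 lay between -0.49 and 0.35. The libraries did not overlap for 5 genes (FLA2, FLA8, FLA9 and FLA13 lower, FLA11 higher), against 50.4% of all genes. The median log2 change was -0.086 over the 10 genes and -0.0054 over all. With only the controls and 100 µM fitted in edgeR, 0 members passed, but the spread was smaller. The SE of FLA13 was then 0.061 instead of 0.145 (log2 change -0.18, adjusted p = 0.0629). For FLA2 the SE was 0.060 instead of 0.109 (log2 change -0.16, adjusted p = 0.0955). The comparisons share libraries, so their values are given side by side only.

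**Figure D2:**
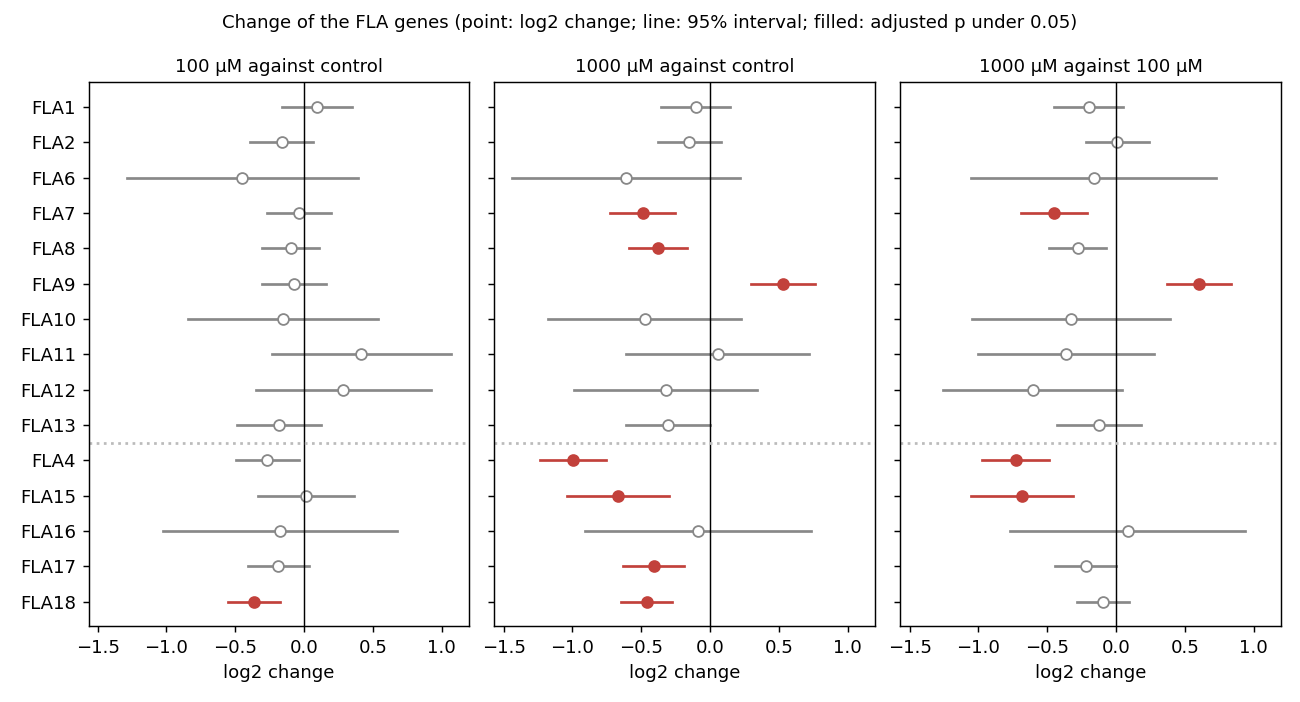
Log2 change of the 10 FLA genes (above the dotted line) and of 5 other FLA genes with enough counts (below it) in each comparison, with 95% intervals; filled points have an adjusted p under 0.05 in edgeR. At 1000 µM against the controls FLA9 alone lies to the right among the filled points (0.53), with FLA7, FLA8, FLA4, FLA15, FLA17 and FLA18 to the left.

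FLA9 rose at 1000 µM. It is a short, single-domain FLA, and the control libraries had 692 and 735 CPM, those of 100 µM had 691 and 665 CPM and those of 1000 µM had 1155 and 906 CPM. Both 1000 µM libraries were above all 4 others, and the controls and the 100 µM libraries lay next to each other. At 1000 µM FLA9 averaged 1031 ± 176 CPM against 713.5 ± 30.0 CPM in the controls (SD, n = 2 each), a log2 change of 0.53 ± 0.11 (SE; 95% interval 0.30 to 0.76) and a 1.44-fold level. The adjusted p was 0.00139 in edgeR's quasi-likelihood test over all 18380 genes tested. Against 100 µM, with 678 ± 18.3 CPM, the log2 change was 0.60 ± 0.11 (1.52-fold, adjusted p = 0.000984). Both calls of FLA9 were kept when any single library was left out, with an adjusted p of at most 0.0423 against the controls and 0.0481 against 100 µM. Its log2 change against the controls was 0.35 without 1000 µM replicate 1 and 0.71 without 1000 µM replicate 2. At 100 µM against the controls its log2 change was -0.074 (95% interval -0.31 to 0.16, adjusted p = 0.817).

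FLA13, the closest relative of FLA9, did not pass the test in any comparison. Its level was 975 and 1029 CPM in the controls, 951 and 816 CPM at 100 µM, and 983 and 639 CPM at 1000 µM. The 1000 µM libraries stood apart from each other, with replicate 1 within the range of the controls and replicate 2 the lowest of the 6. At that dose replicate 1 was also above replicate 2 for FLA1, FLA2, FLA7, FLA8, FLA9 and FLA12. It was below for FLA6, FLA10 and FLA11, which had few counts. Shifts of these genes when a 1000 µM library is left out are thus not separate observations. The log2 change of FLA13 at 1000 µM against the controls was -0.31 (95% interval -0.61 to 0.0001, adjusted p = 0.124). Without 1000 µM replicate 1 it was -0.64, and without 1000 µM replicate 2 it was -0.017. Each of these fits keeps 1 library at 1000 µM, so the spread rests on the other groups. Without a filter on low counts the log2 change was -0.31 with an adjusted p of 0.00640. Against 100 µM the log2 change was -0.12 with both libraries and -0.46 without 1000 µM replicate 1. It turned positive without 1000 µM replicate 2 (0.17) or 100 µM replicate 1 (0.0011).

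The ratio of FLA9 to FLA13 counts within a library does not depend on library scaling. It was 0.710 and 0.714 without melatonin, 0.727 and 0.815 with 100 µM and 1.175 and 1.42 with 1000 µM. FLA9 thus had fewer counts than FLA13 in 4 libraries and more in the 1000 µM libraries, including the one in which FLA13 was as high as in the controls. FLA9 made up 28.2% and 28.4% of the counts of the 10 genes without melatonin, 29.0% and 29.8% with 100 µM and 40.1% and 42.1% with 1000 µM, with Wilson 95% intervals of 39.5% to 40.8% and 41.4% to 42.9% at 1000 µM. Such intervals cover counting error only. With 2 libraries against 2, an exact two-sided permutation test cannot give a p below 0.333, so these ratios are a description. The 10 genes together took 0.249% and 0.258% of all counts without melatonin, 0.241% and 0.224% with 100 µM and 0.272% and 0.220% with 1000 µM, where the values of the 1000 µM libraries enclose those of the controls.

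**Figure D3:**
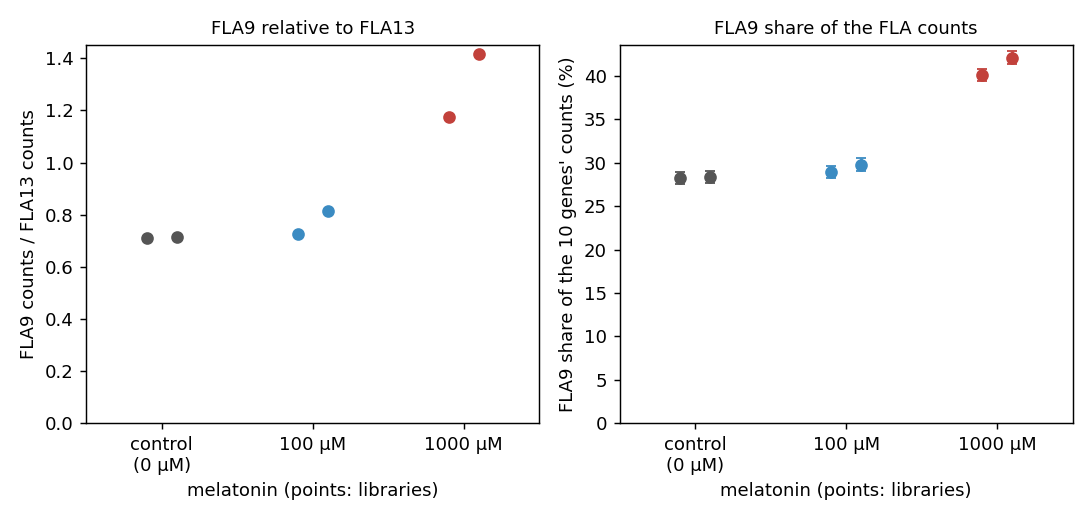
Left, FLA9 counts divided by FLA13 counts in each library (points) by melatonin dose; right, FLA9 as a percent of the counts of the 10 FLA genes, with Wilson 95% intervals. The ratio is 0.710 to 0.815 in the 4 libraries of the controls and 100 µM and 1.175 and 1.42 at 1000 µM, and the share is 28.2% to 29.8% against 40.1% and 42.1%.

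FLA7 and FLA8 fell at 1000 µM. FLA7 (AT2G04780; chr2:1676717-1678455, plus strand), a short FLA, had 48.3 and 51.7 CPM in the controls, 47.1 and 50.3 CPM at 100 µM, and 37.8 and 33.5 CPM at 1000 µM. Both 1000 µM libraries were below the other 4, which lay between 47.1 and 51.7 CPM. FLA7 averaged 35.65 ± 3.04 CPM at 1000 µM and 50.0 ± 2.36 CPM in the controls (SD, n = 2 each), a log2 change of -0.49 ± 0.11 (SE; adjusted p = 0.00328, edgeR). Against 100 µM the log2 change was -0.45 ± 0.11 (adjusted p = 0.0111). The first call ended without control replicate 2 (adjusted p = 0.0530), and the second without 100 µM replicate 1 or 2 (0.0688 and 0.130) and with DESeq2 (0.0704).

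FLA8 (AT2G45470; chr2:18742477-18744322, minus strand), also known as AGP8, is a long FLA with a pair of fasciclin domains. It had 327 and 334 CPM in the controls, 306 and 311 CPM at 100 µM, and 278 and 230 CPM at 1000 µM. The 3 groups did not overlap, with the controls highest and the 1000 µM libraries lowest. FLA8 averaged 254 ± 33.8 CPM at 1000 µM and 330.1 ± 4.95 CPM in the controls (SD, n = 2 each), a log2 change of -0.38 ± 0.10 (SE; adjusted p = 0.00807, edgeR). This call ended without control replicate 1 or 2 (adjusted p = 0.0641 and 0.0883). The log2 change was -0.51 without 1000 µM replicate 1 and -0.24 without 1000 µM replicate 2. Against 100 µM the log2 change was -0.28 (adjusted p = 0.0668), which passed without a filter on low counts (0.0343). That log2 change was -0.42 without 1000 µM replicate 1 and -0.14 without 1000 µM replicate 2. At 100 µM against the controls the log2 changes were -0.098 for FLA8 and -0.038 for FLA7 (adjusted p = 0.710 and 0.916).

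FLA2 and FLA1, the other long FLAs with high counts, passed in no comparison. FLA1 is known for a role in early steps of root and shoot formation from cultured tissue. FLA2 had 347 and 389.5 CPM in the controls, 331 and 327.5 CPM at 100 µM, and 371 and 292 CPM at 1000 µM, where the 1000 µM libraries lay on either side of control replicate 1. Its log2 change at 1000 µM against the controls was -0.15 (95% interval -0.38 to 0.078, adjusted p = 0.319). It was -0.33 without 1000 µM replicate 1 and 0.021 without 1000 µM replicate 2. FLA1 had 46.1 and 38.4 CPM in the controls, 44.9 and 45.2 CPM at 100 µM, and 41.5 and 37.0 CPM at 1000 µM. The FLA1 libraries of 1000 µM overlapped those of the controls, with a log2 change of -0.11 (95% interval -0.36 to 0.15, adjusted p = 0.550).

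FLA11 and FLA12, known for their part in secondary walls of stems, were near the lower end of what this depth can measure. The control libraries held 24 and 22 counts of FLA11, those of 100 µM held 28 and 29, and those of 1000 µM held 24 and 27. FLA12 counts were 35 and 26 in control libraries, 40 and 29 with 100 µM and 27 and 25 with 1000 µM. The groups of FLA12 overlapped in CPM in both comparisons with the controls, and those of FLA11 did not at 100 µM. Against the controls, the 1000 µM log2 change was 0.0545 for FLA11 (95% interval -0.61 to 0.72, adjusted p = 0.917) and -0.32 for FLA12 (-0.99 to 0.34, adjusted p = 0.479). The P58IPK gene, which overlaps FLA11 on the other strand, rose at 1000 µM to 33.65 and 36.8 CPM against 20.5 and 19.5 CPM in the controls (adjusted p = 0.000106, edgeR). Whether the counting used strand is not given in the sources used here. FLA11 values may therefore lack reads from the overlap or include P58IPK reads, which was not tested.

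FLA6 and FLA10 had few counts as well. The control libraries held 33 and 17 counts of FLA6, those of 100 µM held 15 and 19, and those of 1000 µM held 16 and 19. Control replicate 1 stood above the other 5 libraries. FLA10 counts were 30 and 30 in control libraries, 19 and 31 with 100 µM and 20 and 26 with 1000 µM, so that, relative to library size, the 1000 µM libraries lay below the controls. The log2 changes at 1000 µM against the controls were -0.61 for FLA6 (95% interval -1.44 to 0.22, adjusted p = 0.265) and -0.48 for FLA10 (-1.18 to 0.22, adjusted p = 0.304). FLA10 is the close copy of FLA8, which had 1822 to 2441 counts in each library. In this comparison the 95% intervals of FLA6, FLA10, FLA11 and FLA12 were wider than those of the other 6 members. A rise of the size of that of FLA9 (0.53) lies inside the interval of FLA11 and outside those of FLA6, FLA10 and FLA12, while a fall of the size of that of FLA7 (-0.49) lies inside all 4.

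Of the other 11 genes listed for the family, 5 could be tested, and at 1000 µM against the controls 4 of these fell and 0 rose, where 14.5% of all genes tested fell and 15.2% rose. With DESeq2 3 of the 5 were called. FLA4, also called SOS5, is known from a mutant whose roots swell on salt, and FLA15, FLA17 and FLA18 belong to a group predicted to lack the GPI anchor. FLA4 (AT3G46550) had 61.7 and 59.6 CPM in the controls, 51.75 and 49.1 CPM at 100 µM, and 32.8 and 28.2 CPM at 1000 µM. The groups of FLA4 did not overlap, and each dose was lower than the one before, although 100 µM against the controls did not pass (log2 change -0.27, adjusted p = 0.243). It averaged 30.5 ± 3.27 CPM at 1000 µM and 60.6 ± 1.502 CPM in the controls (SD, n = 2 each), a log2 change of -0.99 ± 0.11 (SE; adjusted p = 3.58e-06, edgeR), the largest among the 15 FLA genes tested. The call of FLA4 was kept when any single library was left out (adjusted p at most 0.000127), as was the one against 100 µM (log2 change -0.73, adjusted p = 0.000278, at most 0.0151 without a library).

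FLA18 (AT3G11700) had 275 and 280.0 CPM in the controls, 216 and 215 CPM at 100 µM, and 208 and 196 CPM at 1000 µM. It was the only FLA gene called at 100 µM, with a log2 change of -0.37 ± 0.09 (adjusted p = 0.0293, edgeR) that did not pass without any one of the 4 libraries compared (0.248 to 0.344) or with the replicate number as a block (0.0734). With 1000 µM its log2 change against the controls was -0.46 (adjusted p = 0.000747). FLA15 fell to 9.56 ± 1.36 CPM at 1000 µM, against 15.15 ± 0.024 CPM in the controls (adjusted p = 0.00794), and FLA17 to 48.9 ± 2.68 CPM against 64.9 ± 3.69 CPM (adjusted p = 0.00683). The call of FLA15 ended without control replicate 2 (0.0501) and with DESeq2 (0.0711), and that of FLA17 without control replicate 1 (0.103). Against 100 µM FLA15 had a log2 change of -0.68 (adjusted p = 0.0133), which no longer passed without 100 µM replicate 1 or 2 (0.122 and 0.0706), without 1000 µM replicate 2 (0.0566) and with DESeq2 (0.100). For FLA16 the log2 change was -0.088 at 1000 µM and -0.17 at 100 µM (adjusted p = 0.891 and 0.893), and its groups overlapped. FLA14, FLA20 and FLA21 had 0 counts in all 6 libraries, and FLA3, FLA5 and AT1G15190 had at most 7.

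Other arabinogalactan proteins, which carry the same kind of sugar chains without fasciclin domains, moved in both directions. Of 21 tested, 3 rose (AGP5, AGP12 and AGP15) and 5 fell (AGP4, AGP9, AGP17, AGP18 and AGP26) at 1000 µM against the controls, with a median log2 change of -0.18. Over all genes tested 15.2% rose and 14.5% fell in that comparison. AGP17 and AGP18 belong to the lysine-rich arabinogalactan proteins. AGP18 (AT4G37450) averaged 33.2 ± 2.60 CPM at 1000 µM and 94.9 ± 6.61 CPM in the controls (SD, n = 2 each; log2 change -1.52, adjusted p = 1.54e-08, edgeR), and AGP17 (AT2G23130) averaged 44.1 ± 2.21 CPM at 1000 µM and 98.0 ± 2.17 CPM in the controls (log2 change -1.15, adjusted p = 1.82e-07). AGP9 averaged 63.4 ± 2.12 CPM at 1000 µM and 100.3 ± 2.51 CPM in the controls (log2 change -0.66, adjusted p = 5.16e-05). At 100 µM 4 of the 21 fell (AGP16, AGP17, AGP18 and AGP21) and 0 rose (median -0.23), where 1.53% of all genes fell and 1.79% rose. With DESeq2 2 of the 21 were called. The log2 changes were -0.86 for AGP18, -0.75 for AGP17 and -0.43 for AGP21 (adjusted p = 0.000114, 0.000293 and 0.0213, edgeR). The call of AGP21 ended without any one of the 4 libraries compared (0.134 to 0.348) and with DESeq2 (0.0709).

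Between the doses, 4 of these 21 genes (AGP2, AGP5, AGP12 and AGP15) were higher and 3 (AGP9, AGP17 and AGP18) lower at 1000 µM than at 100 µM (median 0.13), where 8.65% of all genes were higher and 7.3% lower. AGP12 and AGP15, which encode short arabinogalactan peptides, averaged 283 ± 61.4 and 542 ± 124 CPM at 1000 µM against 164 ± 0.44 and 321 ± 4.20 CPM at 100 µM (log2 changes 0.78 and 0.76, adjusted p = 0.000164 and 0.000303). AGP18 had a log2 change of -0.66 in that comparison, with 33.2 ± 2.60 CPM at 1000 µM against 52.2 ± 3.01 CPM at 100 µM (adjusted p = 0.000728).

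Of 18 tested enzymes that build the sugar chains, 1 rose and 2 fell at 1000 µM against the controls (median -0.20), where 15.2% of all genes rose and 14.5% fell. With DESeq2 1 of the 18 was called. GLCAT14C (AT2G37585), a glucuronosyltransferase, averaged 4.57 ± 0.20 CPM at 1000 µM and 9.53 ± 0.52 CPM in the controls (SD, n = 2 each; log2 change -1.06, adjusted p = 0.00211, edgeR). Of the galactosyltransferases listed, AT3G06440 fell (log2 change -0.59, adjusted p = 0.00738) and AT5G62620 rose (0.45, adjusted p = 0.0430). The AT3G06440 call ended without control replicate 1 (0.0671) and with DESeq2 (0.0687). That of AT5G62620 ended without control replicate 2 (log2 change 0.24, adjusted p = 0.427), 1000 µM replicate 2 (0.0543) or either 100 µM library (0.0647 and 0.0668), with DESeq2 (0.183) and with only these groups fitted (0.0666), and its log2 change was 0.69 without control replicate 1. Between the doses 1 of the 18, AT3G06440, was lower at 1000 µM, where 7.3% of all genes were (log2 change -0.48, adjusted p = 0.0454). Its adjusted p was 0.0683 to 0.211 without any one library other than 1000 µM replicate 2, 0.0638 with the replicate block, 0.0719 with only these groups fitted and 0.247 with DESeq2. At 100 µM 0 of the 18 passed in edgeR and 0 with DESeq2, and 2 had an unadjusted p under 0.05.

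Genes of cellulose synthesis in primary walls, the layer with which several FLAs are linked, fell in part. Of 13 tested, 6 fell and 0 rose at 1000 µM against the controls (median -0.30), namely CESA2, CESA3, CESA5, KOR1, CSI1 and FEI2, where 14.5% of all genes fell and 15.2% rose. With DESeq2 4 of the 13 were called. CESA2 (AT4G39350), a catalytic subunit, averaged 115 ± 4.25 CPM at 1000 µM and 204 ± 13.1 CPM in the controls (SD, n = 2 each; log2 change -0.82, adjusted p = 3.25e-06, edgeR). FEI2, a receptor-like kinase that acts with FLA4 in roots, had a log2 change of -0.42 and KOR1, a membrane-bound endoglucanase, of -0.31 (adjusted p = 0.0139 and 0.0168). The call of FEI2 ended without control replicate 1 or 2 (0.105 and 0.0634) and with DESeq2 (0.117), and that of KOR1 without either control or either 100 µM library (0.0552 to 0.144) and with only these groups fitted (0.0691). KOR1, CESA3 and CSI1 overlap genes of the opposite strand, and CESA4 of the secondary wall overlaps 2 genes. FLA16 and AGP16 also overlap genes of the opposite strand. Among the markers RCA, GLDP1 and PYK10 do so too, and CA1 overlaps a gene of its own strand.

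At 100 µM CESA2 was the only one of the 13 called, where 3.32% of all genes were (log2 change -0.39, adjusted p = 0.0245), a call not kept without any one of the 4 libraries compared (0.116 to 0.386) or with DESeq2 (0.0516). Between the doses 3 of the 13 were lower at 1000 µM, where 7.3% of all genes were, and 1 of the 13 with DESeq2. CESA2 had a log2 change of -0.43 (adjusted p = 0.00420), which ended without 100 µM replicate 1 or 2 (0.0976 and 0.0526). For CESA5 the log2 change was -0.32 (adjusted p = 0.0320) and for FEI2 -0.38 (adjusted p = 0.0415). With DESeq2 their adjusted p was 0.0857 and 0.244, with the replicate block 0.0506 and 0.0596, and with only these groups fitted 0.0695 and 0.0701. Each call was kept without 1 library only, 1000 µM replicate 1 for CESA5 and 1000 µM replicate 2 for FEI2. The log2 change of CESA5 was -0.21 without 1000 µM replicate 2.

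Secondary wall and xylem genes, among which FLA11 and FLA12 are usually counted, showed 1 call among 14 tested at 1000 µM against the controls, where 29.6% of all genes were called, and 0 with DESeq2. Their summed level over 21 genes was 117.8 and 129.2 CPM at 1000 µM against 119.6 and 116.2 CPM in the controls, and NST1 and SND1, regulators of fibre walls, were at 0 counts in all 6 libraries. CESA4, a catalytic subunit of the secondary wall, rose to 14.5 ± 0.19 CPM at 1000 µM, against 9.995 ± 0.55 CPM in the controls (SD, n = 2 each; log2 change 0.54, adjusted p = 0.0304, edgeR). This call ended without control replicate 1 or 2 (0.168 and 0.0944) and with DESeq2 (0.173). Against 100 µM CESA4 had an adjusted p of 0.0492, and 0.0664 to 0.309 without any one of the 6 libraries. With DESeq2 it was 0.263, with the replicate block 0.0690, and with only these groups fitted 0.0714. At 100 µM 0 of the 14 passed in edgeR, with an unadjusted p under 0.05 or with DESeq2.

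The genes whose pattern was most like that of FLA9 were sought outside the family by the root mean square difference of centred log2 CPM over the 6 libraries. The 3 nearest were EXT-like (AT4G26750), PHOS32 (AT5G54430) and ACX1 (AT4G16760), with differences of 0.044, 0.052 and 0.056. ACX1, an acyl-CoA oxidase of peroxisomes, had 378 and 316 CPM at 1000 µM against 230.2 and 227 CPM in the controls. All 3 had log2 changes of 0.45 to 0.60 at 1000 µM against the controls and of -0.093 to 0.0088 at 100 µM. Being nearest in this measure is a description of these libraries.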

How the data were processed

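RNA-seq read counts per gene were deposited by the authors as whole numbers for 6 libraries in 3 groups of 2, with no normalisation visible in the values. The submitters' processing notes name TAIR10 as the build and list DESeq 1.18.0 and HTSeq 0.6.1 beside TopHat2 2.0.12 and Bowtie2 2.2.3. Options, and whether counting used strand, are not stated in these sources, and reads shared by close copies may be lost or split. Names, exon lengths, coordinates and promoters are from RefSeq's annotation and genome of TAIR10.1, joined to the counts by locus identifier alone (31912 of 32678 matched).

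The 6 libraries were fitted together in edgeR 4.0.16 under R 4.3.3, after filterByExpr and TMM scaling, by glmQLFit with a term for the group and 3 residual degrees of freedom, and comparisons were tested two-sided by glmQLFTest. This left 18380 genes, adjusted together by Benjamini-Hochberg with a threshold of 0.05, and "called", "rose" and "fell" refer to it. SE is the absolute log2 change over the square root of F, and intervals are log2 change ± SE times the t quantile. That quantile and the p-values use the total degrees of freedom. These add to the residual ones a prior (median 14.1) estimated from the spread of all genes. Coding sequences were aligned globally with Biopython 1.88. The procedure was also run on simulated data in which all groups had the same spread, unlike these libraries. That run is not used as support for any result here. Alternatives were RLE scaling, DESeq2 1.42.0, no filter, only the compared groups, a replicate block and leaving out each library.

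The members, lists and tests were chosen with earlier results of these data known. Named genes are the 10 members, every other FLA gene tested, of each wall list the called genes with the 3 smallest adjusted p in each comparison, and the 3 genes most like the member with the smallest adjusted p at 1000 µM. Genes named to complete a count of called genes, the markers and P58IPK were named after their values were seen. List entries whose symbol the RefSeq table lacks are given under the name in that table.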

Additional observations from a re-analysis of the deposited data

How the results depend on the processing

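The direction and call of FLA9 at 1000 µM were kept under every alternative run, and 0 members passed at 100 µM under any. For the other results, the values that moved were the following. The number of members called was 1 to 5 at 1000 µM against the controls and 1 to 4 against 100 µM when single libraries were left out, and 1 with DESeq2 against 100 µM. Of all genes, 610 were called at 100 µM, but 1091 without a filter, 1697 with only the compared groups, 335 with DESeq2 and 101 to 1757 without single libraries. At 1000 µM against the controls the count was 5442, with 3328 in DESeq2 and 3318 to 6684 without single libraries, and against 100 µM 2932, 1625 and 1158 to 4442. The median of all genes moved by under 0.1 on the log2 scale under every scaling.

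Some changes that were not called turned direction when a single library was left out; the cause was not tested. At 100 µM the log2 changes then ran from -0.035 to 0.23 for FLA1, -0.89 to 0.16 for FLA6, -0.085 to 0.011 for FLA7, -0.57 to 0.18 for FLA10, -0.025 to 0.048 for FLA15 and -0.68 to 0.19 for FLA16. At 1000 µM against the controls they ran from -0.23 to 0.033 for FLA1, -0.33 to 0.021 for FLA2, -0.050 to 0.17 for FLA11 and -0.35 to 0.16 for FLA16. Against 100 µM they ran from -0.17 to 0.18 for FLA2, -0.34 to 0.048 for FLA6, -0.65 to 0.10 for FLA10, -0.46 to 0.17 for FLA13 and -0.27 to 0.60 for FLA16.

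Replicate numbers are shared by the groups, but the labels do not say that they pair libraries, and the deviations of same-numbered libraries correlated at 0.028, -0.031 and -0.066 across genes. With the replicate block the members called were 0, 3 and 2 in the 3 comparisons, as without it, and all genes called were 446, 4959 and 2508. Alternatives for genes other than the members were chosen after seeing the data. Depth limits FLA6, FLA10, FLA11 and FLA12, which had 15 to 40 counts in a library.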
